A study of Mus musculus with 6 samples.

Results

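The genes described here encode the enzymes that modify transfer RNA (tRNA), together with a few close relatives that act on other RNA. They were chosen by gene symbol, with earlier results of these data known, and 65 of the 66 chosen genes were tested, out of 14095 tested genes in all. The remaining gene, Nsun7, was not tested by the authors and stood at 0.275 FPKM in Alkbh1 knockout (KO) cells and 0.0989 FPKM in wild-type (WT) cells. FPKM counts fragments relative to transcript length and to the mapped total, so levels can be compared between genes. The KO group held 4 messenger RNA libraries of mouse embryonic stem (ES) cells without Alkbh1, from 2 clones with 2 libraries each. The WT group held 2 libraries of wild-type TT2 cells. Both groups have the strain background C57BL6 x CBA, passage 5 and culture without feeder cells. Only 1 pooled FPKM value per genotype was deposited, beside the authors' fold change, p and q, so no level below has an SD, the depth is unknown and the clones cannot be compared. With 2 clones on the KO side, an effect of the genotype and a difference between cell clones cannot be told apart. The labels do not say that libraries came from separate cultures, so the spread behind each q may be technical.

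Transfer RNA carries amino acids to the ribosome, and its bases and sugars are altered after transcription more than those of any other RNA class. Modifications at the wobble base and beside the anticodon tune how codons are read, whereas those in the body of the molecule keep its fold and shield it from decay. The knocked-out gene belongs to this subject itself. ALKBH1 is a dioxygenase that has been reported in human cells to remove the methyl group of 1-methyladenosine from tRNA and to oxidise the methylcytosine that NSUN3 places in mitochondrial methionine tRNA.

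In the authors' deposited table, Alkbh1 stood at 18.1 FPKM in KO cells and 33.9 FPKM in WT cells (log2 fold change -0.90, q = 0.0943), in a region that it shares with overlapping genes. The labels do not say which part of the gene was deleted, so this gene-level value does not check the genotype. The labelled cell type was checked against its markers. The 8 ES cell markers summed to 4473 FPKM in KO and 7233 FPKM in WT cells, and the lowest, Klf4, stood at 39.1 FPKM in KO and 39.5 FPKM in WT cells. Of these markers 5 were called lower (q under 0.05) in the authors' deposited table. They were Dppa5a (-0.84), Pou5f1 (-0.77), Sox2 (-0.76), Tdgf1 (-0.58) and Zfp42 (-0.50). Klf4 (-0.015) and Esrrb (0.17) were not called and Nanog was not tested. The 5 and Esrrb had a mean of KO and WT above 76.7 FPKM. At such levels 76.6% of all tested genes were called lower. The 8 fibroblast markers, which would mark feeder cells, summed to 11.03 FPKM in KO and 7.13 FPKM in WT cells. Most of it came from Thy1, and 0 of the markers were listed at 0 in KO and 3 in WT. The 3 called higher were Col1a1, Pdgfrb and Thy1, and the other 5 were not tested. At a mean of 0.244 to 0.695 FPKM, which covers Col1a1 and Pdgfrb, 41.3% of all tested genes were called higher. At 7.58 to 11.9 FPKM, which covers Thy1, it was 18.9%. The part of these marker differences in the results below was not tested. Over all tested genes the FPKM summed to 624340 in KO and 981679 in WT cells, which is 63.6% of the WT sum. FPKM is a relative measure and the scaling between libraries was not given, so this sum does not measure RNA per cell. For a given gene, a lower level in each cell and fewer cells that express it cannot be told apart in such bulk samples.

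Most tRNA modification genes were lower in KO cells, and 1 was higher. A gene is called here when the authors' q is under 0.05. Of the 65 tested genes, 44 were called lower (67.7%), against 28.4% of all tested genes, and 1 was called higher (1.54%), against 22.4% of all tested genes. The 20 genes that were not called lay below 0 in 18 cases. The median log2 fold change was -0.66, which is 1.58-fold lower, against -0.060 over all tested genes. Summed over the 65 genes, the level was 1354 FPKM in KO and 2308 FPKM in WT cells. Of the 65 genes, 8 were called and at least 2-fold lower (12.3%), against 5.36% of all tested genes. When KO and WT were set to equal FPKM sums, every log2 fold change rose by 0.65, the median moved to -0.010, and the 45 called genes split into 30 below 0 (46.2% of the 65) and 15 above 0 (23.1%). Of all tested genes, 16.8% were called and below 0 on that scale, and 34.0% were called and above 0. The calls kept the deposited q and were not remade on that scale, so these counts only give signs among called genes. The statements of higher and lower that follow are on the deposited scale unless another is named.

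**Figure D1:**
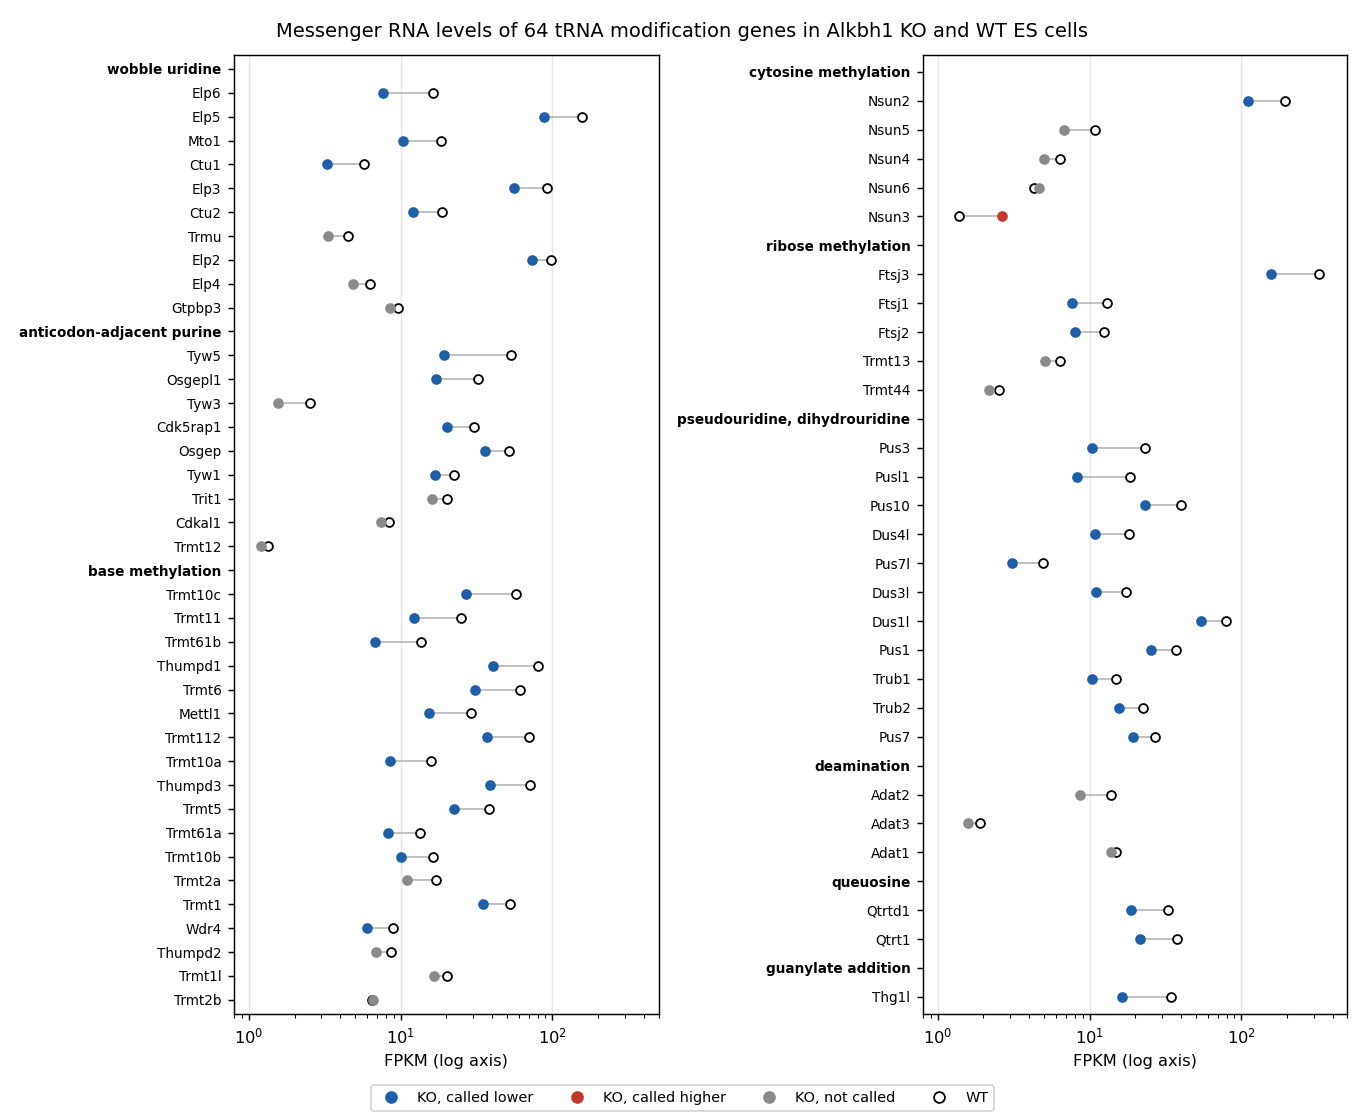
Levels of 64 of the 65 tested genes by role. Each row is a gene, the filled point is the KO level and the open point the WT level in FPKM on a log axis, 1 pooled value per genotype with no error bar. The KO point lies to the left of the WT point in 61 genes, and Nsun3 is the only gene with a called rise.

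Across all tested genes the direction followed the expression level, and the tRNA modification genes lay below genes of similar level. When tested genes were put into 10 equal classes by the mean of KO and WT FPKM, the median log2 fold change was 0.69 in the lowest class and -0.72 in the highest. With each gene set against the median of its own class, 61 of the 65 lay below it, against 7035 of 14095 over all tested genes, and their median difference was -0.48. The share of all tested genes called lower, weighted to the classes that the 65 genes occupy, was 35.5%. In the lowest 5 classes 3 of 14 tRNA modification genes were called lower (21.4%), against 9.80% of all tested genes there. In the next 3 classes it was 27 of 37 (73.0%), against 32.9%, and in the highest 2 it was 14 of 14 (100%), against 68.1%. Within the list, Spearman's rho of the fold change was -0.46 with the mean level and 0.36 with the length of the longest transcript, as a description across 65 genes of the same libraries. Over all tested genes these were -0.55 and 0.30. The median transcript length was 3048 bases for the list and 3151 bases over all tested genes. The part of level and length in the result was not tested.

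**Figure D2:**
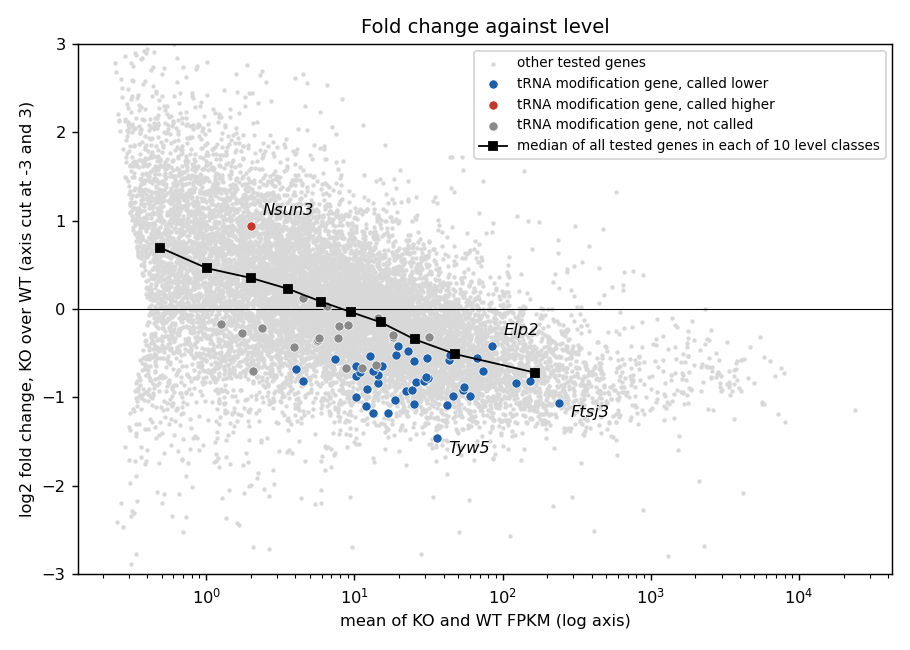
Log2 fold change of KO over WT against the mean FPKM of both genotypes on a log axis. Grey points are other tested genes, coloured points the 65 tRNA modification genes, and squares the median of all tested genes in each of 10 level classes; most coloured points lie under the line of squares, while Nsun3 and Elp2 lie above it.

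**Figure D3:**
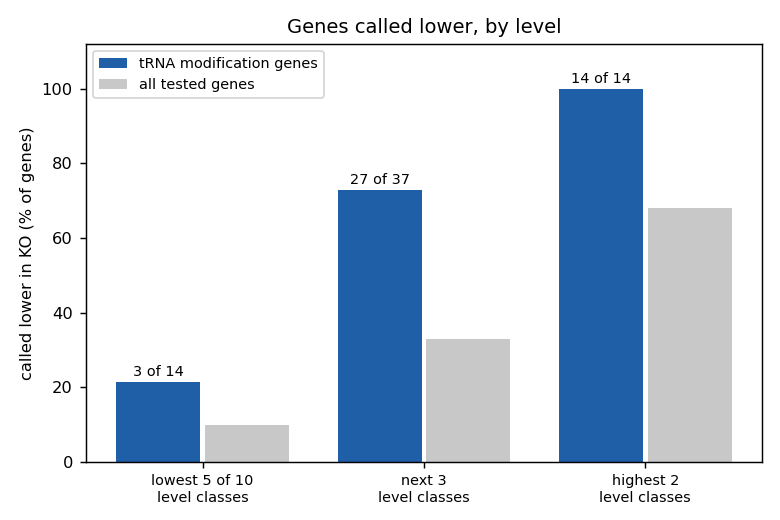
Percent of genes called lower in KO, for tRNA modification genes and for all tested genes, in 3 bands of level. The shares are 21.4% against 9.80%, 73.0% against 32.9% and 100% against 68.1% from the low to the high band.

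Wobble uridine is modified in the cytosol by the Elongator complex and the thiolase CTU1-CTU2, and in mitochondria by MTO1, GTPBP3 and TRMU. Of these 11 genes, 7 were called lower, none higher, and the other 4 lay below 0. Of all tested genes, 28.4% were called lower. Elp6, a subunit of the Elongator subcomplex formed by ELP4, ELP5 and ELP6, had 7.60 FPKM in KO and 16.3 FPKM in WT cells in the authors' deposited table (log2 fold change -1.10, q = 0.000206). Its partner subunit gene Elp5 had 87.8 FPKM in KO and 157 FPKM in WT cells in the authors' deposited table (-0.84, q = 0.000206). Elp5 shares its region with Ctdnep1, which was not called (-0.59, q = 0.135). Elp4, the other member of that subcomplex, was not called, with 4.87 FPKM in KO and 6.24 FPKM in WT cells in the authors' deposited table (-0.36, q = 0.073). The catalytic subunit gene Elp3 had 56.2 FPKM in KO and 91.5 FPKM in WT cells there (-0.70, q = 0.000206). Elp2 fell least among the called subunits, with 73.1 FPKM in KO and 97.7 FPKM in WT cells in the authors' deposited table (-0.42, q = 0.0146), and it lay 0.30 above the median of genes of its level. Levels of the subunit genes given here thus spanned from 4.87 to 87.8 FPKM in KO and from 6.24 to 157 FPKM in WT cells, although their proteins work in 1 complex.

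The thiolase genes were both called lower. Ctu1, the catalytic subunit gene, had 3.27 FPKM in KO and 5.74 FPKM in WT cells in the authors' deposited table (-0.81, q = 0.000206). Ctu2 had 12.01 FPKM in KO and 18.7 FPKM in WT cells in the authors' deposited table (-0.64, q = 0.028), in a region shared with Piezo1, which was called higher at 0.86. Among the mitochondrial enzymes, Mto1 had 10.4 FPKM in KO and 18.5 FPKM in WT cells in the authors' deposited table (-0.84, q = 0.000206). Gtpbp3, whose protein acts with MTO1 in the same step, was not called, at 8.48 FPKM in KO and 9.65 FPKM in WT cells in the authors' deposited table (-0.19, q = 0.38). Trmu, the mitochondrial thiolase gene, was not called either, at 3.34 FPKM in KO and 4.48 FPKM in WT cells in the authors' deposited table (-0.42, q = 0.0793).

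The purine next to the anticodon carries bulky groups such as threonylcarbamoyl, isopentenyl and wybutosine. Of the 9 genes for these, 5 were called lower, against 28.4% of all tested genes, and the other 4 lay below 0. Tyw5, which hydroxylates wybutosine, had the lowest log2 fold change of all 65, with 19.3 FPKM in KO and 53.1 FPKM in WT cells in the authors' deposited table (-1.46, q = 0.000206). Its region (chromosome 1, 57445087 to 57472802, mm9) is shared with 9430016H08Rik, whose values there were nearly equal, 17.8 FPKM in KO and 49.3 FPKM in WT cells (-1.47). Reads of these overlapping genes may have been divided between them, so the Tyw5 value is uncertain. Tyw1, which forms the ring of wybutosine, had 16.8 FPKM in KO and 22.5 FPKM in WT cells in the authors' deposited table (-0.42, q = 0.019). Tyw3 (-0.70, q = 0.133) and Trmt12 (-0.17, q = 0.53), which act between these steps, were not called in the authors' deposited table and stood under 3 FPKM in both genotypes.

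Threonylcarbamoyl is transferred by OSGEP in the cytosol and nucleus and by OSGEPL1 in mitochondria. Osgepl1 had 17.1 FPKM in KO and 32.2 FPKM in WT cells in the authors' deposited table (-0.91, q = 0.000206), and Osgep had 36.2 FPKM in KO and 51.9 FPKM in WT cells (-0.52, q = 0.00374). Isopentenyl is added by TRIT1 and then methylthiolated in mitochondria by CDK5RAP1. Cdk5rap1 had 20.2 FPKM in KO and 30.5 FPKM in WT cells in the authors' deposited table (-0.59, q = 0.00056). Trit1 was not called, at 16.2 FPKM in KO and 20.1 FPKM in WT cells there (-0.31, q = 0.101), nor was Cdkal1, the methylthiolase gene for threonylcarbamoyl adenosine (-0.19, q = 0.381).

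Base methylation, grouped here with the acetylation adaptor gene Thumpd1, formed the largest class. Of its 18 genes 14 were called lower, against 28.4% of all tested genes, and none higher. Genes for enzymes that make 1-methyladenosine, a modification that ALKBH1 has been reported to remove, were among the 14. Values of 4 such genes follow. Trmt6, the non-catalytic subunit gene of the cytosolic enzyme, had 30.9 FPKM in KO and 61.3 FPKM in WT cells in the authors' deposited table (-0.99, q = 0.000206). Its catalytic partner Trmt61a had 8.22 FPKM in KO and 13.5 FPKM in WT cells in the authors' deposited table (-0.72, q = 0.00039). The mitochondrial counterpart Trmt61b had 6.80 FPKM in KO and 13.5 FPKM in WT cells in the authors' deposited table (-0.99, q = 0.00056). Trmt61b shares its region with Spdya, which was not called (-0.59, q = 0.323). Trmt10c, which methylates the purine between acceptor and D arms in mitochondria and belongs to mitochondrial RNase P, had 27.1 FPKM in KO and 57.4 FPKM in WT cells there (-1.08, q = 0.000206). Set against the median of genes of their level, the 4 stood between -0.96 and -0.48, and they also lay below 0 with equal FPKM sums.

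Of the other 14 genes in the class, 10 were called lower. Trmt11, which methylates guanosine with the activator TRMT112, had 12.3 FPKM in KO and 25.04 FPKM in WT cells in the authors' deposited table (-1.03, q = 0.000206). Trmt112 itself had 37.3 FPKM in KO and 70.5 FPKM in WT cells in the authors' deposited table (-0.92, q = 0.000206), in a region shared with Esrra. Thumpd3, in human cells another catalytic partner of TRMT112, stood at 38.9 FPKM in KO and 71.5 FPKM in WT cells in the authors' deposited table (-0.88, q = 0.000206). Thumpd3 shares its region with Gt(ROSA)26Sor, which was not called (-1.03, q = 0.0597). Thumpd1, an adaptor for cytidine acetylation of tRNA, had 40.3 FPKM in KO and 79.9 FPKM in WT cells there (-0.99, q = 0.000206). The 7-methylguanosine enzyme is formed by METTL1 and WDR4. Mettl1, its catalytic subunit gene, had 15.4 FPKM in KO and 29.2 FPKM in WT cells in the authors' deposited table (-0.92, q = 0.000206), and Wdr4 had 5.98 FPKM in KO and 8.84 FPKM in WT cells (-0.56, q = 0.00284). The methyltransferase genes Trmt10a (-0.91), Trmt5 (-0.77), Trmt10b (-0.71) and Trmt1 (-0.58) were also called lower in the authors' deposited table. Trmt1 turned to 0.071 with equal FPKM sums. Not called were Trmt2a (-0.63, q = 0.0682), Thumpd2 (-0.33), Trmt1l (-0.29) and Trmt2b, the mitochondrial uridine methyltransferase gene, at 6.61 FPKM in KO and 6.46 FPKM in WT cells in the authors' deposited table (0.035, q = 0.93).

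Cytosine methylation by the NSUN family held the exception. Nsun3 had 2.66 FPKM in KO and 1.38 FPKM in WT cells in the authors' deposited table, 1.92-fold higher (0.94, q = 0.00119; chromosome 16, 62734677 to 62786542, mm9). NSUN3 methylates the wobble cytidine of mitochondrial methionine tRNA, the base that ALKBH1 has been reported to oxidise further. Among tested genes in the same level class, 39.4% were called higher and the median was 0.35, so Nsun3 lay 0.59 above genes of its level. Nsun2, which methylates many cytosolic tRNAs, was called lower, at 111 FPKM in KO and 195 FPKM in WT cells in the authors' deposited table (-0.81, q = 0.000206), and stood at -0.091 against genes of its level. Nsun6, another tRNA methyltransferase gene, was not called, at 4.68 FPKM in KO and 4.30 FPKM in WT cells in the authors' deposited table (0.12, q = 0.61). Nsun4 (-0.35, q = 0.0844) and Nsun5 (-0.67, q = 0.12), which methylate ribosomal RNA, were not called in the authors' deposited table.

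Ribose methylation genes gave 3 called lower of 5, against 28.4% of all tested genes. Ftsj1, which methylates ribose in the anticodon loop, had 7.65 FPKM in KO and 13.0 FPKM in WT cells in the authors' deposited table (-0.76, q = 0.000206). Ftsj3 and Ftsj2 act on ribosomal RNA, the first in the nucleolus and the second in mitochondria. Ftsj3 was the most abundant gene of the whole list, with 157 FPKM in KO and 327 FPKM in WT cells in the authors' deposited table (-1.06, q = 0.000206). Ftsj2 had 7.99 FPKM in KO and 12.4 FPKM in WT cells there (-0.64, q = 0.00119). Trmt13 (-0.33, q = 0.276) and Trmt44 (-0.22, q = 0.359) were not called in the authors' deposited table.

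In uridine isomerisation and reduction, all 11 tested genes for pseudouridine and dihydrouridine were called lower, against 28.4% of all tested genes. Most of the 11 had a mean of 11.9 to 34.6 FPKM. Of all tested genes, 31.3% were called lower at 11.9 to 19.6 FPKM and 44.9% at 19.6 to 34.6 FPKM. All 11 lay below the median of genes of their level. With equal FPKM sums 6 of the 11 turned above 0, by 0.17 or less. Pus3, which makes pseudouridine in the anticodon arm, had 10.3 FPKM in KO and 23.3 FPKM in WT cells in the authors' deposited table (-1.18, q = 0.000206), in a region shared with Hyls1, called lower at -0.69. Pusl1 had 8.23 FPKM in KO and 18.6 FPKM in WT cells in the authors' deposited table (-1.17), but its q of 0.0477 lay close to the threshold, and it shares its region with Cpsf3l, called lower at -0.41. Pus10 (-0.78), Pus7l (-0.68), Pus1 (-0.55), Trub1 (-0.53), Trub2 (-0.52) and Pus7 (-0.48) completed the pseudouridine synthases in the authors' deposited table. Pus10 shares its region with Pex13, called lower at -0.61. The dihydrouridine synthase genes, whose enzymes reduce uridine in tRNA, were also all called lower. Dus4l had 10.8 FPKM in KO and 18.2 FPKM in WT cells (-0.75), Dus3l 11.1 FPKM in KO and 17.4 FPKM in WT cells (-0.65), and Dus1l 54.2 FPKM in KO and 79.7 FPKM in WT cells (-0.56), per the authors' deposited table.

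Remaining roles were small. Queuosine replaces guanine at some wobble positions, and the enzyme has the subunits QTRT1, which is catalytic, and QTRTD1. Qtrt1 had 21.5 FPKM in KO and 37.9 FPKM in WT cells in the authors' deposited table (-0.82, q = 0.000206), and Qtrtd1 had 18.7 FPKM in KO and 33.1 FPKM in WT cells (-0.82, q = 0.000206), so both subunit genes were lower by nearly the same factor. Thg1l, which adds a guanylate to histidine tRNA, had 16.3 FPKM in KO and 34.3 FPKM in WT cells in the authors' deposited table (-1.07, q = 0.000206). Adenosine deamination gave no call among 3 genes. Adat2, the catalytic subunit gene of the wobble inosine enzyme, had 8.71 FPKM in KO and 13.8 FPKM in WT cells in the authors' deposited table (-0.66, q = 0.0656). Its partner Adat3 had 1.58 FPKM in KO and 1.89 FPKM in WT cells there (-0.27, q = 0.818). Adat2 shares its region with Pex3 (-0.12, q = 0.643) and Adat3 with Scamp4 (-0.37, q = 0.0577). Adat1, which deaminates alanine tRNA, had 13.9 FPKM in KO and 14.9 FPKM in WT cells in the authors' deposited table (-0.11, q = 0.618).

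Grouping by the tRNA acted on, made after the values were seen, set apart 9 genes whose enzymes modify mitochondrial tRNA. Of these 5 were called lower (Trmt10c, Trmt61b, Osgepl1, Mto1 and Cdk5rap1), 1 higher (Nsun3) and 3 were not called (Trmu, Gtpbp3 and Trmt2b). Among the other 56 genes, 39 were called lower and none higher. Of all tested genes, 28.4% were called lower and 22.4% higher. Trit1, whose enzyme adds the isopentenyl that CDK5RAP1 methylthiolates in mitochondria, was counted among the 56. So was Ftsj2, which acts on ribosomal RNA in mitochondria. The others are thus not all without a mitochondrial role. The median log2 fold change was -0.59 for the 9 genes and -0.67 for the other 56. A difference between these groups was not tested.

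**Figure D4:**
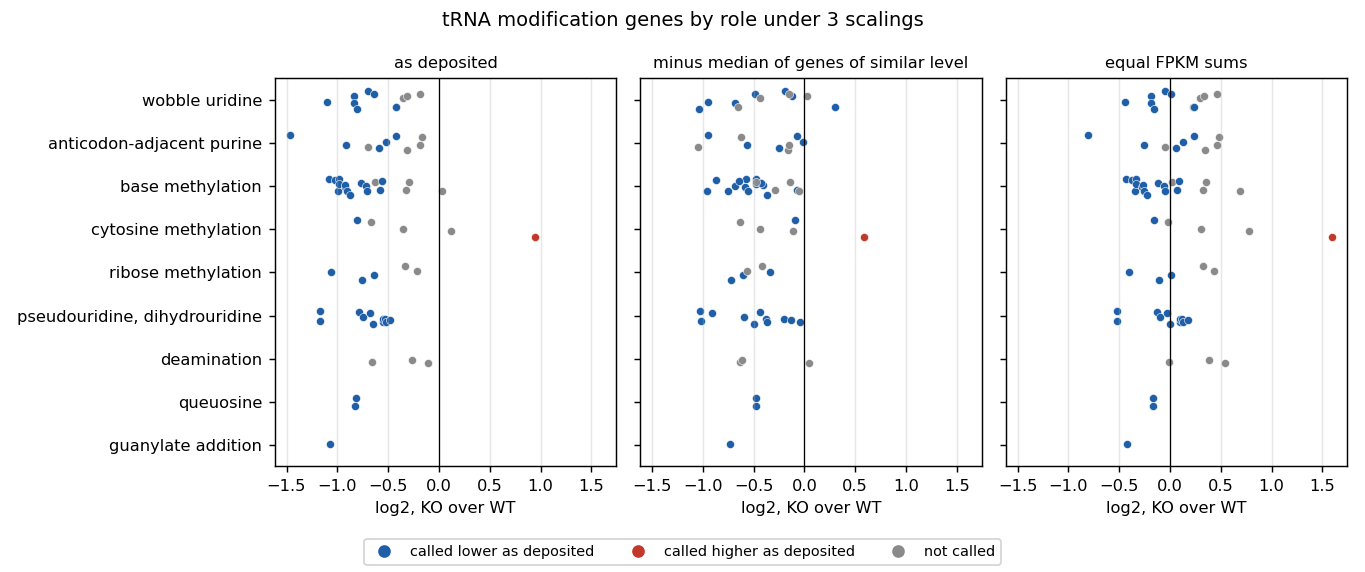
Log2 fold change of KO over WT for each of the 65 genes by role, as deposited, after subtraction of the median of genes of similar level, and with equal FPKM sums. Points are genes coloured by the authors' call. Most points lie below 0 in the first and second panels, whereas in the third they lie on both sides of 0 and Nsun3 remains the highest.

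Promoters are shown for the 3 genes with the lowest fold changes and for the gene that was called higher, since these mark the ends of the range. The windows are from RefSeq (GRCm38.p6), each 250 bases before to 50 after the start, written on the strand of the gene. They are chr1:57406625-57406924 on the minus strand for Tyw5, chr9:35558310-35558609 on the plus strand for Pus3, chr4:155891713-155892012 on the minus strand for Pusl1 and chr16:62786667-62786966 on the minus strand for Nsun3. These positions are on another build than those of the authors' table. Capitals mark a match to one of the motifs searched.
Tyw5: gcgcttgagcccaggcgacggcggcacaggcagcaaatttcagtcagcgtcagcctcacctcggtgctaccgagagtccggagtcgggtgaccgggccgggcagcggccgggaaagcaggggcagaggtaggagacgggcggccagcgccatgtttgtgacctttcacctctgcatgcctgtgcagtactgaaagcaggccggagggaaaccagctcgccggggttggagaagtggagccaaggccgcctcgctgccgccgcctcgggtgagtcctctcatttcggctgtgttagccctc
Pus3: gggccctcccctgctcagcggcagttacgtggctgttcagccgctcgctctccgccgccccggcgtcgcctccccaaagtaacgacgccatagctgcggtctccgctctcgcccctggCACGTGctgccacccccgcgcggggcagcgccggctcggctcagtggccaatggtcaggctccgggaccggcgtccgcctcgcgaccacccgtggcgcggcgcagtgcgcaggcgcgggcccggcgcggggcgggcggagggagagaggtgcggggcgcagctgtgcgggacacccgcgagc
Pusl1: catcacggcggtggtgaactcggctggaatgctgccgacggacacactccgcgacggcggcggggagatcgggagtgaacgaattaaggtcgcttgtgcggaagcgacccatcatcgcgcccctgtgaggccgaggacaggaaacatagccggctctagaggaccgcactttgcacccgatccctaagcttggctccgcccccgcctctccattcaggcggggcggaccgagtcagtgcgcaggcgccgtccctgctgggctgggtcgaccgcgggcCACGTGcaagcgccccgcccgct
Nsun3: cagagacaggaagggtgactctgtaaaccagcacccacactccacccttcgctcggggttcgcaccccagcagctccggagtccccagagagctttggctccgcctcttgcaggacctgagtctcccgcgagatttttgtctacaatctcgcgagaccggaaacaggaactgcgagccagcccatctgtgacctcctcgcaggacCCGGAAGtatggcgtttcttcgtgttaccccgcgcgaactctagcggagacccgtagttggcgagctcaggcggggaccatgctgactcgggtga

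All of these windows were rich in G and C, at 66% for Tyw5, 77% for Pus3, 68% for Pusl1 and 61% for Nsun3. An E-box (CACGTG), the core bound by MYC and its relatives, occurred 132 bases before the start of Pus3. Another lay 27 bases after the start of Pusl1. The Nsun3 window held an ETS motif (CCGGAAG) 45 bases before the start, and the Tyw5 window held none of the motifs. The motifs were searched on both strands. Beside these were the NRF1 core, a YY1 motif and the cyclic AMP response element (TGACGTCA). No motif searched holds another. Of the 65 genes 57 had a promoter in the reference. Among the 40 with a promoter that were called lower, 10 held an E-box (25%), against 11.8% of tested genes and 8.09% of all genes with a promoter. An ETS motif was found in 14 of the 40 (35%), against 19.2% of tested genes and 9.93% of all. Among all genes called lower the shares were 13.4% for the E-box and 26.3% for the ETS motif. In the 16 uncalled members 1 held an E-box and 3 an ETS motif. The response element was found in 5 of the 40 (12.5%), against 4.56% of all genes called lower, 3.48% of tested genes and 2.03% of all. The NRF1 core was found in 0 of the 57, against 2.20% of tested genes and 1.07% of all. The YY1 motif was found in 1 of the 57, Trit1 (1.75%), against 1.70% of tested genes and 0.755% of all. Median G and C content was 59% for the members and 60.3% for tested genes. A match is a description of letters and was not tested for binding.

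A further list held genes that prepare tRNA or supply the modification enzymes, and 8 tested genes for other tRNA modifications. Of its 39 tested genes, none of them among the 65, 33 were called lower (84.6%), none higher, and 6 were not called, against the same background of 28.4% lower and 22.4% higher. That background was not matched to level. The median of the mean level was 27.0 FPKM in this list and 7.57 FPKM over all tested genes. In the class of 19.6 to 34.6 FPKM, 44.9% of all tested genes were called lower. The median log2 fold change of the list was -0.68 as deposited and -0.45 against genes of similar level. With equal FPKM sums the deposited calls split into 23 below and 10 above 0. Of all tested genes, 16.8% were called and below 0 on that scale, and 34.0% were called and above 0. Protein subunits of nuclear RNase P and its relative RNase MRP, which trim the leading end of tRNA and process ribosomal RNA, gave 10 called lower of 11. Rpp30 had 27.5 FPKM in KO and 71.7 FPKM in WT cells in the authors' deposited table (-1.38, q = 0.000206), and Rpp38 had 11.95 FPKM in KO and 29.7 FPKM in WT cells (-1.31, q = 0.000206). Tsen15, a subunit gene of the endonuclease that removes tRNA introns, had 31.1 FPKM in KO and 71.1 FPKM in WT cells in the authors' deposited table (-1.19, q = 0.000206). Dph3, a partner of Elongator, had 16.1 FPKM in KO and 35.6 FPKM in WT cells there (-1.14, q = 0.000206). Kti12, an Elongator regulator, was likewise called lower at -1.11. The supply side of threonylcarbamoyl, with Yrdc, Tprkb, Trp53rk and Lage3, gave 4 called lower of 4, of which Lage3 turned to 0.22 with equal FPKM sums. Alkbh8, a relative of Alkbh1 that completes the wobble uridine side chain after Elongator, was not called, at 6.45 FPKM in KO and 6.69 FPKM in WT cells in the authors' deposited table (-0.052, q = 0.833). Hsd17b10, a component of mitochondrial RNase P like TRMT10C, had 71.2 FPKM in KO and 99.3 FPKM in WT cells in the authors' deposited table (-0.48, q = 0.00779), and lay 0.24 above genes of its level.

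**Figure D5:**
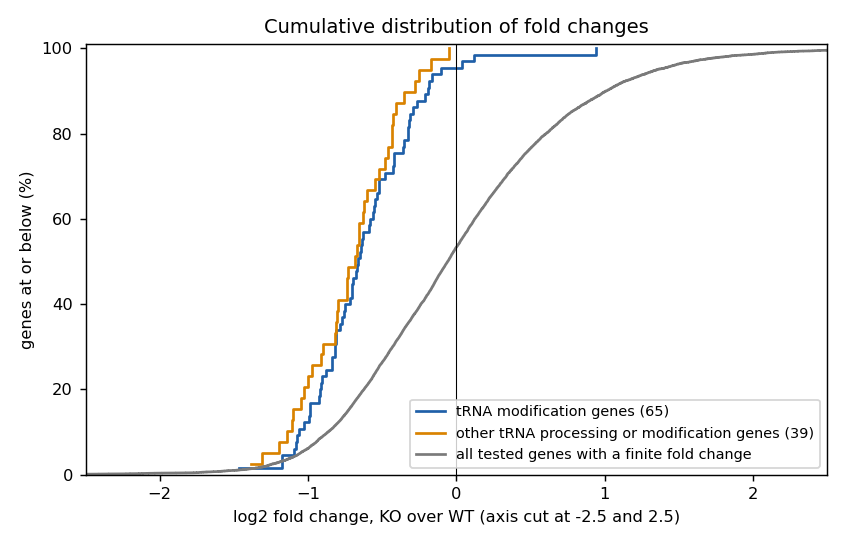
Cumulative percent of genes at or below each log2 fold change of KO over WT, for the 65 tRNA modification genes, 39 other tRNA processing and modification genes and all tested genes with a finite fold change. At 0 the curves of the tRNA modification genes and of the other list stand at 95.4% and 100%, far above the curve of all tested genes.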

How the data were processed

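Libraries were made from total RNA by a strand-specific messenger RNA protocol, per the labels' protocols. Reads were aligned with TopHat2 to mm9, per the submitters' processing notes. The annotation, the scaling between libraries and any strand setting were not given in the sources used here. One deposited table has the layout of a Cuffdiff comparison, per the file headers: FPKM per genotype, and the authors' log2 fold change of KO over WT, test score, p-value and q-value. No library has values of its own, so no test was run anew; a gene is called at the deposited q under 0.05. The smallest deposited p-value, 5e-05, is shared by 25 of the 65 genes, which it cannot rank. The members and lists were chosen with earlier results of these data known.

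Genes were put into 10 classes by mean FPKM, and infinite fold changes were left out of medians. The centring and the p adjustment were tested on simulated data. One gene of the list is counted but not reported here by itself. Every other member may be named. Values in full go to up to 4 called genes per role with the largest fold change and to their complex partners. They also go to Nsun3, to 4 genes for enzymes of 1-methyladenosine and to up to 4 called partner genes. Regions shared by overlapping genes hold 17 of the 65 genes. Of these 17, 9 were called lower and 8 were not called, among them Tyw3, Nsun5, Adat2 and Trmt2a. Of the 48 genes with a region of their own, 35 were called lower. Transcript lengths are from GENCODE M21, matched for 65 members and 99.3% of tested genes. Python 3.11.15, NumPy 2.4.6, pandas 2.3.3, SciPy 1.17.1, statsmodels 0.14.6 and Matplotlib 3.10.9 were used.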

Additional observations from a re-analysis of the deposited data

How the results depend on the processing

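No paired analysis was possible because the table holds 1 value per genotype; for the same reason no replicate could be left out. The counts of 44 genes called lower and 1 higher, and of 33 and 0 in the partner list, ranged from 40 to 50 and 29 to 35 lower with q under 0.01 or 0.1, with 1 and 0 higher. At least a 2-fold difference was shown by 8 members and 8 partner genes called lower, and 0 called higher. Leaving out genes that share a region (35 lower, 1 higher) or genes that act on other RNA (42 lower, 1 higher) kept both counts within 1.5 times. So did the filter at the 25th percentile of level. Recomputed adjustment gave q within 5.2e-07 of the deposited values, and the counts stayed the same. A pseudocount of 1 and centring on the median of all tested genes (-0.060) kept the deposited q. Neither could change the sign of a called gene in these lists, so they do not check the counts. Medians ranged from -0.67 to -0.60 across these settings. The 9 genes whose enzymes modify mitochondrial tRNA alone gave 5 called lower.

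Scaling changed directions. With equal FPKM sums the median of the members moved to -0.010. Among called genes, 15 members and 10 partner genes then stood above 0, and 14 of these members had changed sign: Dus3l to 0.0040, Ctu2 to 0.012, Ftsj2 to 0.014, Cdk5rap1 to 0.062, Trmt1 to 0.071, Wdr4 to 0.090, Dus1l to 0.10, Pus1 to 0.10, Trub1 to 0.12, Trub2 to 0.13, Osgep to 0.13, Pus7 to 0.17, Tyw1 to 0.23 and Elp2 to 0.23. Of the partner genes named in the report, Hsd17b10 turned to 0.17 and Lage3 to 0.22. Centred by class of level, the median was -0.48, with 2 members and 3 partner genes above 0 among those called: Elp2 turned to 0.30, Hsd17b10 to 0.24 and Lage3 to 0.076. Calls kept the deposited q under both scalings and were not remade. Which scaling holds was not tested.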

Other observations

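Genes next to Nsun3 on chromosome 16 were looked at after its rise was seen. Pros1, which encodes the anticoagulant protein S, had 7.95 FPKM in KO and 4.69 FPKM in WT cells in the authors' deposited table (log2 fold change 0.76, q = 0.000206). Arl13b, a small GTPase gene of primary cilia that lies between Nsun3 and Pros1, had 7.26 FPKM in KO and 5.39 FPKM in WT cells in the authors' deposited table (0.43, q = 0.028). Stx19, in the region of Arl13b, was not tested. On the other side Arl6, another cilium GTPase gene, was called lower, with 15.0 FPKM in KO and 25.2 FPKM in WT cells in the authors' deposited table (-0.75, q = 0.000206). The region of Arl6 ends at 60605357 (mm9), far from Nsun3. The 3 neighbouring tested genes Nsun3, Arl13b and Pros1, which span 62734677 to 62929166 (mm9), were thus all called higher. Nsun3 was the reason for the choice, so only Arl13b and Pros1 add to it. In their level class, 4.62 to 7.57 FPKM, 25.9% of tested genes were called higher, against 22.4% over all classes. A test of this run of genes was not made, since it was chosen for Nsun3.

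Overlapping genes did not always move with the tRNA gene beside them. Piezo1, an ion channel gene in the joined region of Ctu2, had 9.63 FPKM in KO and 5.32 FPKM in WT cells in the authors' deposited table (0.86, q = 0.00056), while Ctu2 was lower. Esrra, a nuclear receptor gene in the region of Trmt112, had 4.76 FPKM in KO and 2.82 FPKM in WT cells there (0.75, q = 0.25).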
